A study of Mus musculus with 36 samples.

Results

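The Ifitm family studied here is Ifitm1, Ifitm2 and Ifitm3, 3 of the 18194 genes measured on the arrays. The members were picked from a readout of these data, because Ifitm1 fell with 2 of the hairpins described below. The differences of Ifitm1 between a hairpin and the control are therefore given as a description with no test, and so are those of Ifitm2 and Ifitm3 in the comparisons in which Ifitm1 was called and in the differences between labels built on them. The differences of Ifitm1 between labels that contain the LacZ, Ppp2r2d, Arhgap5 or Ptpn2 arrays reuse the values that chose the family, and they too are given without a test. Each member was read by 1 probe set, so no second probe set could be set against it. RNA came from mouse CD8 T cells derived from OT-I mice, whose T cell receptor sees an ovalbumin peptide. The cells carried a short hairpin RNA (shRNA) and had been moved into mice with a B16 tumor, a melanoma line. There were 36 arrays in 12 groups of 3. The labels name 6 transductions: hairpins against Ppp2r2d (a subunit that directs the phosphatase PP2A), Egr2 (a transcription factor of stimulated T cells), Ptpn2 (a phosphatase that limits JAK-STAT signals), Arhgap5 (a GTPase-activating protein), Alk (a receptor tyrosine kinase) and, as the control, LacZ (a bacterial gene). Each transduction has 3 arrays labelled tumor and 3 labelled spleen. Transduction, transfer and the tumor-bearing host are common to all 12 groups, LacZ included. The labels say neither how many hairpin sequences stand behind a target nor whether the 3 arrays of a group came from separate animals, so a p-value here measures the spread between arrays, which may be technical.

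IFITM proteins are small membrane proteins that interferons induce in most cell types. In mice and humans they hinder the fusion of enveloped viruses with cell membranes, Ifitm1 mainly at the cell surface and Ifitm2 and Ifitm3 mainly in endosomes. Ifitm3 is also known as a gene that memory CD8 T cells of the mouse lung keep expressed, where it protects them from infection. Macrophages and other cells that take up material express the family as well.

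The 3 genes lie together on mouse chromosome 7 (RefSeq, GRCm38.p6). Ifitm2 spans 140954837 to 140959686, Ifitm1 140967429 to 140969827 and Ifitm3 141009590 to 141010744, so that 55908 bases hold all 3. Their promoter windows from RefSeq are shown because the 3 members moved together in most comparisons and apart in a few. Each window runs from 250 bases before an annotated start to 30 bases into the transcript, on the strand of the gene: chr7:140967826-140968105 on the plus strand for Ifitm1, chr7:140955932-140956211 on the minus strand for Ifitm2 and chr7:141010715-141010994 on the minus strand for Ifitm3. Capitals mark matches to either of 2 motifs searched on both strands.
Ifitm1: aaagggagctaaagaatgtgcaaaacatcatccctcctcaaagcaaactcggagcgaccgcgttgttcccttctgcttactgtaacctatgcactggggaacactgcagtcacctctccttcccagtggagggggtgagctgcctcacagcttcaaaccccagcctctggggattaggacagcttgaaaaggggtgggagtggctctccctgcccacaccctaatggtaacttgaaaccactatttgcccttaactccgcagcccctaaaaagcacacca
Ifitm2: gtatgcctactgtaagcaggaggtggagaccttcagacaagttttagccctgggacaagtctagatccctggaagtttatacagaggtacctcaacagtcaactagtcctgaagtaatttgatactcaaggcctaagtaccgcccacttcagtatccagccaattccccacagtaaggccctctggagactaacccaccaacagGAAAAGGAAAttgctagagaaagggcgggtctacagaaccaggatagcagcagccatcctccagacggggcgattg
Ifitm3: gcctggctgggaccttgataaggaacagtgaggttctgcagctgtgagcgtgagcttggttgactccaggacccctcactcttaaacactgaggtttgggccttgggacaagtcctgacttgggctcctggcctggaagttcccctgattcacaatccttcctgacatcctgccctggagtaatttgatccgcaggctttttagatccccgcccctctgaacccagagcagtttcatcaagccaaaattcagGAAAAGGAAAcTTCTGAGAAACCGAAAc
The interferon-stimulated response element was searched as GAAANNGAAA, which 3.28% of 32851 such windows hold. The Ifitm3 window holds 2 matches, GAAAAGGAAA and GAAACCGAAA, and the Ifitm2 window holds 1, GAAAAGGAAA, which starts 46 bases before the annotated start. No match lies in the Ifitm1 window. The Ifitm1 and Ifitm2 windows lie inside the gene spans given above, so the sequence before the outermost start of these genes was not searched. The gamma-activated site was searched as TTCNNNGAA, which 7.83% of windows hold. Only the Ifitm3 window of the 3 has it (TTCTGAGAA), where it overlaps the second response element. A match is a description of these letters and not a measured binding site.

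Before the results, some facts on the arrays bear on how they are read. Values are log2 levels as deposited, with array medians of -0.48 to -0.23, and levels are compared for 1 gene between arrays and not between genes. Markers opposed the tissue labels: the summed level of 8 pigment cell genes lay at 2.47 to 3.71 in the 18 arrays labelled tumor and at 6.47 to 8.18 in the 18 labelled spleen (log2 of the sum). The arrays are therefore called labelled tumor and labelled spleen throughout, and each direction between tissues rests on those labels. Measured T cell identity genes (7 of 8 listed) were high under both labels, with sums of 8.55 to 10.1 in labelled tumor and 9.02 to 9.94 in labelled spleen. One array stood farthest apart, Ptpn2 array 1 labelled tumor. Its best correlation with any other array was 0.905 (0.968 to 0.994 for the other 35). On it the 3' probe set of Gapdh lay 2.94 above the 5' one (0.25 to 1.39 on the others), a gap that widens as RNA degrades. The 3 LacZ arrays labelled spleen had the lowest best correlations of the other 35, with 0.968 on array 2. The remaining arrays reached 0.9835 or more. The Gapdh gap of 1.39 was that of LacZ array 1 labelled spleen. These LacZ arrays are the reference of each hairpin difference in labelled spleen, and differences of hairpin effects between labels use them too. The part of this in those results was not tested. Among the targeted genes, only Ppp2r2d in labelled spleen was called lower with its own hairpin than with LacZ (log2 difference -1.37 ± 0.42, SE; limma adjusted p = 0.0286). The other 9 differences of a target lay between -1.32 and 1.13 and were not called.

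The levels of Ifitm1 spread widest among the groups labelled tumor. With the Ptpn2 hairpin the 3 arrays labelled tumor read 5.23, 5.37 and 4.5, against 3.81, 4.47 and 3.88 in those labelled spleen. This was the only transduction whose labelled tumor arrays all lay above the labelled spleen arrays. With the Arhgap5 hairpin Ifitm1 read -0.10, -0.28 and 0.36 in labelled tumor and 4.10, 4.52 and 4.34 in labelled spleen, the widest gap of the 6. With the Alk hairpin it read 0.67, 0.17 and 1.63 in labelled tumor and 3.08, 3.46 and 3.42 in labelled spleen. Both transductions had low labelled tumor arrays and high labelled spleen arrays. With the Egr2 hairpin the levels were 1.80, 2.60 and 0.82 in labelled tumor and 4.02, 4.03 and 3.56 in labelled spleen. With the Ppp2r2d hairpin they were -0.09, 0.98 and 0.49 in labelled tumor and 1.43, 1.67 and 1.91 in labelled spleen. Ppp2r2d thus had the lowest labelled spleen arrays of all transductions. The LacZ arrays read 3.38, 1.86 and 1.95 in labelled tumor and 3.45, 3.65 and 3.21 in labelled spleen, and array 1 labelled tumor reached into the range of the labelled spleen arrays.

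Ordered by mean, Ifitm1 ran from Ptpn2 labelled tumor (5.04 ± 0.47, SD, n = 3 here and below) through Arhgap5, Ptpn2, Egr2, LacZ and Alk labelled spleen (4.32 ± 0.21 to 3.32 ± 0.21) to LacZ labelled tumor (2.40 ± 0.86). Below these came Egr2 labelled tumor (1.74 ± 0.89), Ppp2r2d labelled spleen (1.67 ± 0.24) and the labelled tumor groups of Alk (0.82 ± 0.74), Ppp2r2d (0.46 ± 0.54) and Arhgap5 (-0.01 ± 0.33). The ranges of 3 arrays overlapped between all neighbours in this order.

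**Figure D1:**
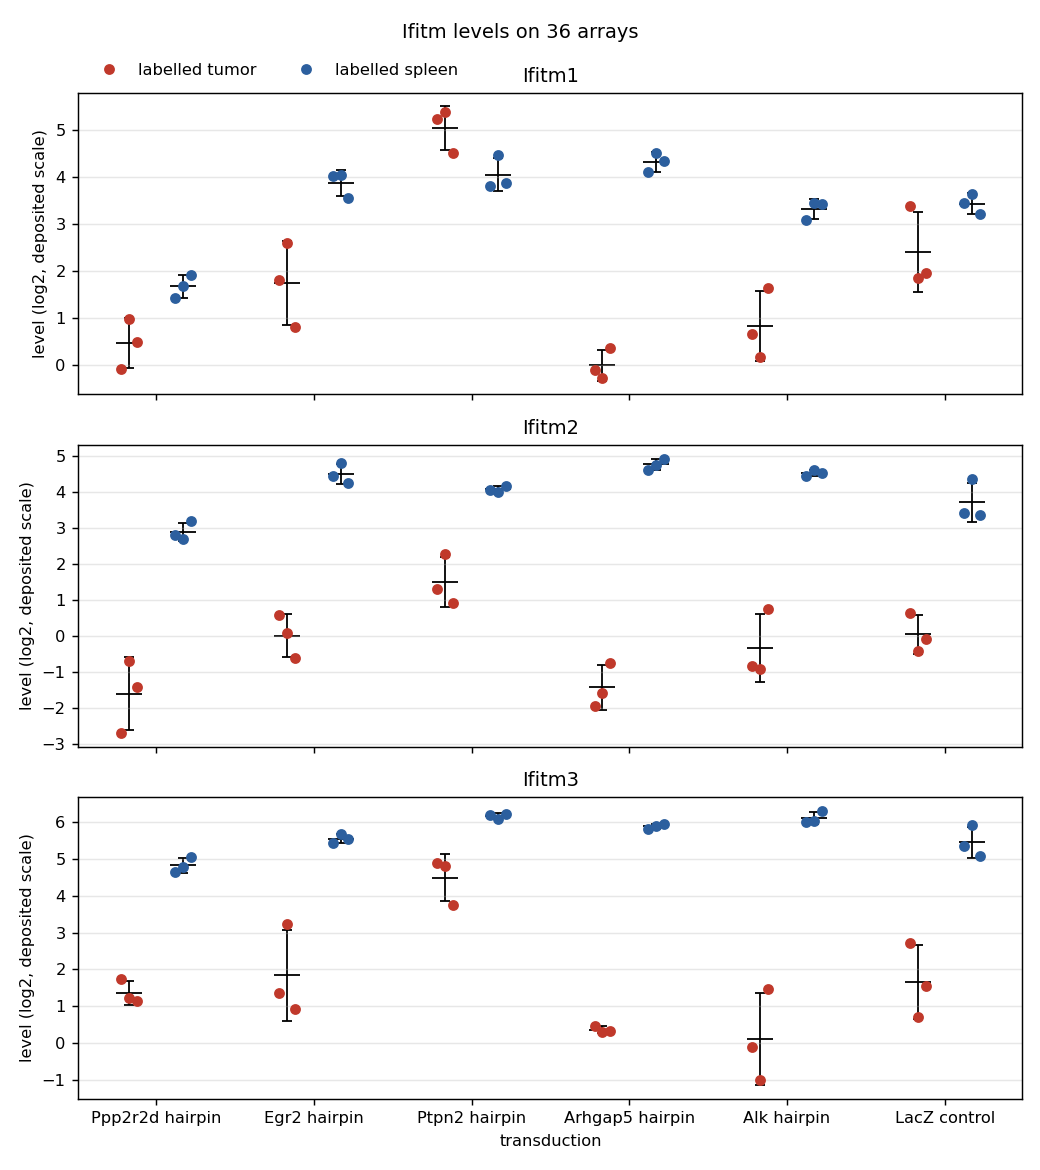
Log2 levels (deposited scale, vertical axis) of Ifitm1, Ifitm2 and Ifitm3 for 6 transductions (horizontal axis), labelled tumor in red and labelled spleen in blue; points are arrays, black bars the mean and SD of 3 arrays. Labelled tumor arrays lie below labelled spleen arrays in each panel except Ifitm1 with the Ptpn2 hairpin, and Ifitm1 in LacZ overlaps.

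Ifitm2 split by label without overlap. Its 18 arrays labelled tumor ranged over -2.69 to 2.27 (median -0.52) and the 18 labelled spleen over 2.69 to 4.92 (median 4.29). With the Ptpn2 hairpin it read 1.30, 2.27 and 0.92 in labelled tumor, against 4.05, 3.98 and 4.17 in labelled spleen. These 3 were the highest labelled tumor arrays. With the Ppp2r2d hairpin it read -2.69, -0.69 and -1.42 in labelled tumor and 2.81, 2.69 and 3.18 in labelled spleen, the lowest mean under each label. With the Arhgap5 hairpin the levels were -1.95, -1.59 and -0.74 in labelled tumor and 4.61, 4.75 and 4.92 in labelled spleen. The labelled spleen mean of Arhgap5 was the highest. The Alk hairpin gave -0.82, -0.92 and 0.75 in labelled tumor and 4.44, 4.59 and 4.53 in labelled spleen. The Egr2 hairpin gave 0.57, 0.09 and -0.62 in labelled tumor and 4.44, 4.80 and 4.23 in labelled spleen. LacZ arrays read 0.64, -0.43 and -0.09 in labelled tumor and 3.42, 4.34 and 3.36 in labelled spleen. Egr2 and Alk labelled tumor overlapped LacZ labelled tumor, whereas the labelled tumor groups of Ptpn2, above, and of Ppp2r2d and Arhgap5, below, did not. In the order of means the neighbours without overlap were Arhgap5 over Alk, Egr2 over Ptpn2 and LacZ over Ppp2r2d within labelled spleen, Ppp2r2d labelled spleen over Ptpn2 labelled tumor, and Ptpn2 over LacZ within labelled tumor.

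Ifitm3 ranged over -1.0 to 4.89 (median 1.30) in labelled tumor and 4.64 to 6.30 (median 5.85) in labelled spleen. With the Ptpn2 hairpin it read 4.89, 4.80 and 3.76 in labelled tumor, and 6.18, 6.08 and 6.21 in labelled spleen. These labelled tumor arrays lay above all other labelled tumor arrays and reached the lower end of the labelled spleen range. With the Arhgap5 hairpin it read 0.47, 0.30 and 0.33 in labelled tumor and 5.81, 5.89 and 5.93 in labelled spleen. With the Alk hairpin it read -0.10, -1.0 and 1.47 in labelled tumor and 5.98, 6.01 and 6.30 in labelled spleen. These 2 transductions had the lowest means in labelled tumor. With the Ppp2r2d hairpin the levels were 1.74, 1.24 and 1.14 in labelled tumor and 4.64, 4.78 and 5.04 in labelled spleen. The Egr2 hairpin gave 1.36, 3.24 and 0.92 in labelled tumor and 5.43, 5.67 and 5.52 in labelled spleen. LacZ arrays read 2.72, 0.72 and 1.56 in labelled tumor and 5.34, 5.90 and 5.08 in labelled spleen. Egr2 and LacZ labelled tumor each spanned about 2 log2 units and overlapped Ppp2r2d labelled tumor. Neighbours in the order of means without overlap were Alk over Arhgap5, Arhgap5 over Egr2 and LacZ over Ppp2r2d within labelled spleen, and Ptpn2 over Egr2 and Ppp2r2d over Arhgap5 within labelled tumor.

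The family was lower in labelled tumor than in labelled spleen. Averaged over the 6 transductions, Ifitm2 was 20.7-fold lower in labelled tumor (log2 difference -4.37 ± 0.18, SE; limma adjusted p = 9.25e-20) and Ifitm3 16.1-fold lower (-4.01 ± 0.20; adjusted p = 1.04e-17). Ifitm1 was 3.26-fold lower (-1.70 ± 0.16), and its arrays overlapped between labels. In this comparison 33.1% of genes were called lower and 37.6% higher, so that being called says little about the members. The median difference over all genes was 0.13. The choice of the family did not use this comparison, but arrays it used are part of it.

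Within single transductions, Ifitm2 and Ifitm3 were called lower in labelled tumor in 6 of 6. The share of all genes called lower was 14.5% with Ppp2r2d, 15.9% with Egr2, 25.1% with Ptpn2, 21.6% with Arhgap5, 20% with Alk and 18.9% with LacZ. Ifitm2 differed most with the Arhgap5 hairpin (-6.19 ± 0.44; 95% interval -7.09 to -5.29; adjusted p = 1.3e-12) and least with the Ptpn2 hairpin (-2.57 ± 0.44; -3.47 to -1.67; adjusted p = 3.4e-05). The other 4 values of Ifitm2 were -4.85 with Alk, -4.49 with Ppp2r2d, -4.48 with Egr2 and -3.67 with LacZ. Ifitm3 differed most with the Alk hairpin (-5.98 ± 0.49; -6.97 to -4.98; adjusted p = 2.67e-11) and least, again, with Ptpn2 (-1.67 ± 0.49; -2.67 to -0.68; adjusted p = 0.00704). Without Ptpn2 array 3 labelled tumor that Ptpn2 value was -1.31 and not called (adjusted p = 0.0537). Its other values were -5.51 with Arhgap5, -3.77 with LacZ, -3.70 with Egr2 and -3.45 with Ppp2r2d.

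Ifitm1 did not share this pattern throughout. With the 2 hairpins whose Ifitm1 values did not choose the family it was called lower in labelled tumor, Alk (-2.49 ± 0.40; adjusted p = 1e-05) and Egr2 (-2.13 ± 0.40; adjusted p = 0.000108). As a description, it differed by -4.33 ± 0.40 with Arhgap5, -1.21 ± 0.40 with Ppp2r2d and -1.04 ± 0.40 in LacZ. With the Ptpn2 hairpin it was higher in labelled tumor (0.98 ± 0.40; 95% interval 0.17 to 1.80), where 24.1% of genes were called higher. Leaving out 1 array gave 0.81 to 1.25 with Ptpn2, -1.47 to -0.94 with Ppp2r2d and -1.53 to -0.77 in LacZ. Without Ptpn2 array 1 labelled tumor, the array that stood apart, Ifitm1 differed by 0.88, Ifitm2 by -2.47 and Ifitm3 by -1.88.

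**Figure D2:**
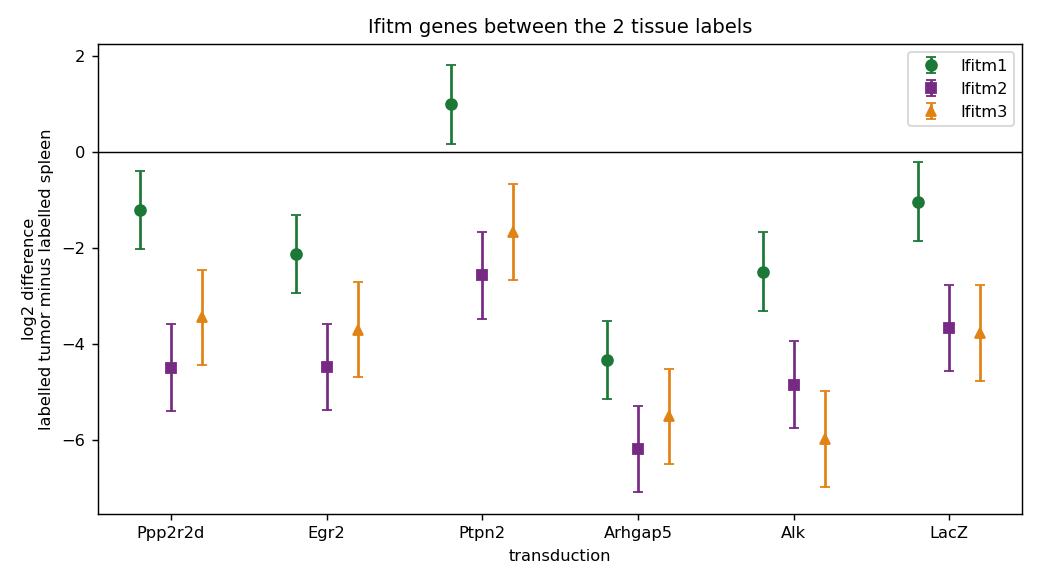
Log2 difference, labelled tumor minus labelled spleen (vertical axis), of Ifitm1 (circles), Ifitm2 (squares) and Ifitm3 (triangles) by transduction (horizontal axis); bars are 95% intervals of the limma fit. Ifitm2 and Ifitm3 lie below 0 in all 6 transductions, and Ifitm1 lies at 0.98 with the Ptpn2 hairpin.

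The centring of the arrays moves these values. The median difference over all genes ran from -0.48 in LacZ to 0.34 with Alk on the deposited scale, and from 0.04 to 0.08 after quantile normalization. After that step, Ifitm1 differed by 1.56 with Ptpn2, -0.79 with Ppp2r2d and -0.69 in LacZ. Of the called genes, 35.9% were higher in labelled tumor with Ppp2r2d, 39.8% with Egr2, 33.1% with Arhgap5 and 25% in LacZ on the deposited scale, and 51%, 50.9%, 53.8% and 52.5% after quantile normalization. With Alk 62.4% were higher on the deposited scale and 46.1% after cyclic loess. No member past the threshold changed direction under any scaling.

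Genes of some other cell types moved with the family and those of others did not. The counts below are over the 6 transductions, where 33.1% of all genes were called lower and 37.6% higher. Of 12 macrophage and monocyte markers, 11 were called lower in labelled tumor, with summed levels of 2.63 to 3.72 in labelled tumor and 6.23 to 8.64 in labelled spleen. Of the 8 pigment cell genes 7 were called lower too, and so were 5 of 6 genes of dendritic cells and MHC class II, with sums of 2.54 to 4.94 in labelled tumor and 6.18 to 7.81 in labelled spleen. All 5 measured B cell genes were called higher in labelled tumor, with sums of 4.54 to 6.27 in labelled tumor and 3.95 to 4.79 in labelled spleen. So were 2 of 3 measured erythroid genes, Car1 (3.53 ± 0.36) and Alas2 (0.92 ± 0.29), and 1 of 4 measured neutrophil genes, Cxcr2 (0.76 ± 0.21). Of 9 genes of stroma and endothelium 3 were called higher and 3 lower, near the shares of all genes. Array values have no true 0, so no marker can be called absent. Within the labelled tumor arrays, where the macrophage sum was low, the deviations of Ifitm1 from its group means went with those of the macrophage sum (r = 0.897 over 18 arrays), as did those of Ifitm3 (0.888) and, less closely, Ifitm2 (0.616). In labelled spleen the same values were 0.214 for Ifitm1, 0.718 for Ifitm3 and 0.619 for Ifitm2. Ifitm3 also went with the sum over dendritic cell and class II genes (0.821 in labelled tumor and 0.684 in labelled spleen) and with that over the interferon-induced genes described below (0.698 in labelled tumor and 0.862 in labelled spleen). In labelled tumor erythroid genes gave 0.572 for Ifitm1, 0.655 for Ifitm2, above its macrophage value, and 0.593 for Ifitm3. T cell identity genes gave 0.158, 0.004 and 0.315 there. In labelled spleen some other lists gave similar values for Ifitm2 and Ifitm3, and some did not. With T cell identity genes they were 0.671 and 0.624, with erythroid genes 0.774 and 0.746, and with B cell genes 0.17 and 0.175. These points share arrays and groups, and the values are a description. In RNA of bulk samples, fewer cells of a type and less RNA per cell cannot be told apart, and the part of other cells in the tissue difference was not tested.

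**Figure D3:**
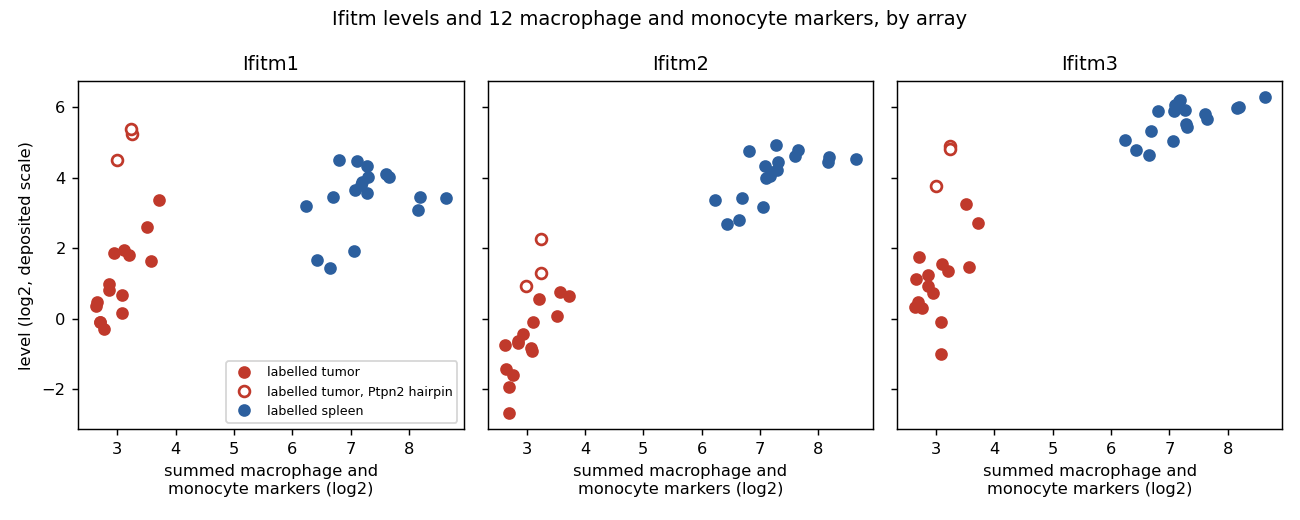
Log2 level of each member (vertical axis) against the log2 of the summed levels of 12 macrophage and monocyte markers (horizontal axis) in 36 arrays, labelled tumor in red (open for the Ptpn2 hairpin) and labelled spleen in blue. Labelled tumor arrays have sums of 2.63 to 3.72 and labelled spleen arrays 6.23 to 8.64, and the Ptpn2 arrays labelled tumor carry high Ifitm levels at sums like those of the other arrays labelled tumor.

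Against LacZ in labelled tumor, Ifitm1 fell with 2 hairpins and was higher with another. It was 5.31-fold lower with the Arhgap5 hairpin (log2 difference -2.41 ± 0.40, SE) and 3.83-fold lower with the Ppp2r2d hairpin (-1.94 ± 0.40), the comparisons that led to the choice of the family. Among all genes, 0.297% were called lower with Arhgap5 and 0.132% with Ppp2r2d. With the Ptpn2 hairpin it was 6.22-fold higher (2.64 ± 0.40), in a comparison with 0.643% of genes called higher. The Alk hairpin gave -1.57 ± 0.40, outside the threshold that chose the family, with its 3 arrays below the 3 LacZ arrays. The Egr2 hairpin gave -0.66 ± 0.40, with overlap.

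Ifitm2 and Ifitm3 ran alongside Ifitm1 with some hairpins and not with others. In labelled tumor the Ptpn2 hairpin gave differences from LacZ of 1.46 ± 0.44 for Ifitm2 and 2.82 ± 0.49 for Ifitm3, with no array overlap for either. With the Arhgap5 hairpin they were -1.47 ± 0.44 and -1.30 ± 0.49, also without overlap. The Ppp2r2d hairpin gave -1.64 ± 0.44 for Ifitm2 without overlap, and -0.30 ± 0.49 for Ifitm3 with overlap. LacZ array 1 labelled tumor, the highest of its group for all 3 members, bears on these values: without it Ifitm3 differed by -0.77 with Arhgap5 and by 0.23 with Ppp2r2d, and Ifitm1 by -1.91 and -1.44. These are the comparisons in which Ifitm1 was called, so no test is given. The share of all genes whose arrays did not overlap was not counted, so a lack of overlap is a description. Without Ptpn2 array 1 labelled tumor, the Ptpn2 differences were 2.54 for Ifitm1, 1.55 for Ifitm2 and 2.61 for Ifitm3. Of the called genes, 86.7% were higher with Ppp2r2d and 84.2% with Ptpn2 on the deposited scale, and 60.2% and 64.3% after quantile normalization. With the Egr2 hairpin, where 0.0275% of genes were called, neither gene passed the test: Ifitm2 differed by -0.03 (95% interval -0.93 to 0.87; limma adjusted p = 0.979) and Ifitm3 by 0.17 (-0.82 to 1.17; adjusted p = 0.889). With the Alk hairpin, where 0.0055% of genes were called, Ifitm2 differed by -0.37 (-1.27 to 0.53; adjusted p = 0.656) and Ifitm3 by -1.55 (-2.54 to -0.55; adjusted p = 0.123). Without LacZ array 2 labelled tumor the Ifitm3 value with Alk was -2.02 and called (adjusted p = 0.0199).

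In labelled spleen Ifitm1 was 3.39-fold lower with the Ppp2r2d hairpin than in LacZ (-1.76 ± 0.40), where 6.68% of genes were called lower, and its arrays did not overlap. Ifitm2 (-0.82 ± 0.44) and Ifitm3 (-0.62 ± 0.49) also lay below LacZ in every array there, by -0.50 and -0.39 without LacZ array 2. With the other 4 hairpins Ifitm1 differed by 0.88 ± 0.40 with Arhgap5, 0.62 ± 0.40 with Ptpn2, 0.44 ± 0.40 with Egr2 and -0.12 ± 0.40 with Alk. For Ifitm2 and Ifitm3 none of the 8 tests with these 4 hairpins passed. Ifitm2 differed by 1.05 with Arhgap5 (0.15 to 1.96; limma adjusted p = 0.116), 0.81 with Alk (-0.09 to 1.72; adjusted p = 0.229), 0.78 with Egr2 (-0.12 to 1.69; adjusted p = 0.303) and 0.36 with Ptpn2 (-0.54 to 1.27; adjusted p = 0.602). Ifitm3 differed by 0.72 with Ptpn2 (-0.28 to 1.71; adjusted p = 0.319), 0.66 with Alk (-0.34 to 1.65; adjusted p = 0.371), 0.44 with Arhgap5 (-0.56 to 1.43; adjusted p = 0.577) and 0.10 with Egr2 (-0.89 to 1.10; adjusted p = 0.921). Of all genes, 8.89% were called in either direction with Arhgap5, 7.4% with Alk, 3.23% with Egr2 and 9.58% with Ptpn2. Of the called genes, 47.9% were higher with Ppp2r2d, 49.3% with Egr2, 35.2% with Ptpn2, 34.1% with Arhgap5 and 49.1% with Alk on the deposited scale, and 59.2%, 68.4%, 61.7%, 58.8% and 64.8% after quantile normalization. All comparisons under a label share its 3 LacZ arrays. Those labelled spleen had the lowest best correlations apart from Ptpn2 array 1 labelled tumor, as given above.

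**Figure D4:**
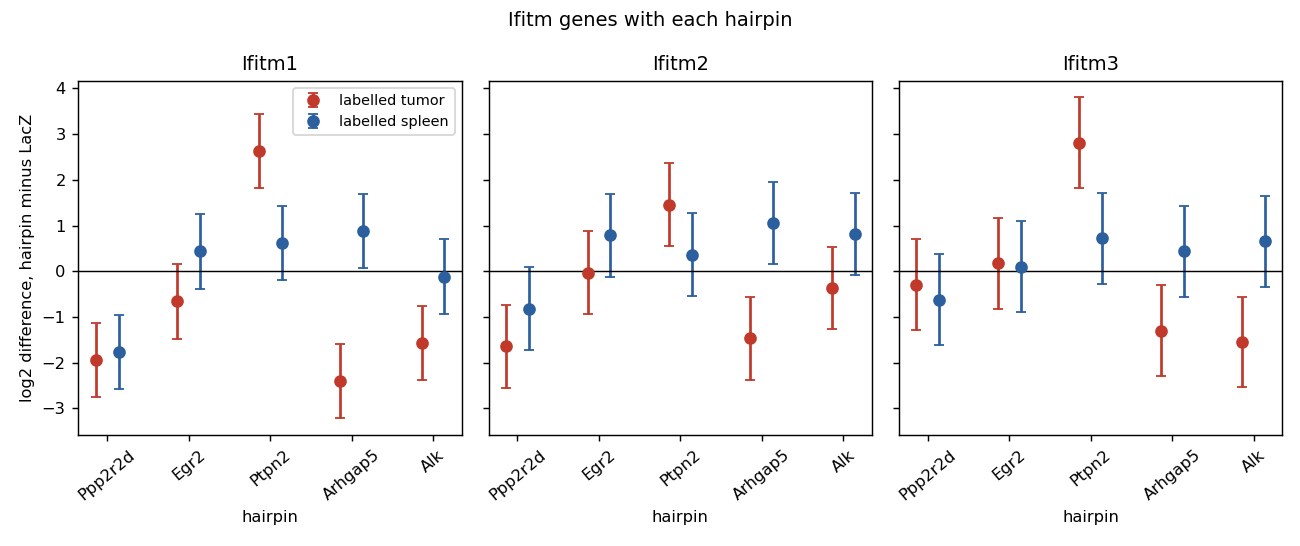
Log2 difference, hairpin minus LacZ (vertical axis), of Ifitm1, Ifitm2 and Ifitm3 with each of 5 hairpins (horizontal axis), labelled tumor in red and labelled spleen in blue; bars are 95% intervals of the limma fit. In labelled tumor all 3 members lie above 0 with the Ptpn2 hairpin and below 0 with the Arhgap5 hairpin.

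Markers of other cells were set beside these differences. In labelled tumor the macrophage sum averaged 3.16 with the Ptpn2 hairpin, 2.70 with Arhgap5 and 2.74 with Ppp2r2d, against 3.26 in LacZ. The Ptpn2 arrays thus had Ifitm1 2.64 above LacZ with a macrophage sum no higher than in LacZ, while the sum over dendritic cell and class II genes was higher (4.39 with Ptpn2 and 3.37 in LacZ), and its part in the result was not tested. The Arhgap5 and Ppp2r2d arrays had both less Ifitm1 and a lower macrophage sum, and the part of that in the result was not tested. Tyrobp, an adaptor of myeloid and natural killer cells, was the 1 macrophage marker called lower with Ppp2r2d in labelled tumor (-1.40 ± 0.34). In labelled spleen the macrophage sum was 6.71 with Ppp2r2d and 6.67 in LacZ, so that the lower Ifitm1 of Ppp2r2d there stood beside nearly equal sums. With Alk in labelled spleen it was 8.33, and 9 of 12 markers were called higher, beside 3.63% of all genes. There Ifitm1 differed by -0.12 with overlap, and Ifitm2 by 0.81 and Ifitm3 by 0.66 without overlap, neither called. The part of such cells was not tested.

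The effect of a hairpin was then compared between labels, as the hairpin difference in labelled tumor minus that in labelled spleen. With Alk the term of Ifitm3 was called (-2.20 ± 0.69, SE; limma adjusted p = 0.0232), where 25.4% of genes were called in either direction. The call was lost without LacZ array 1 labelled tumor (-1.68; adjusted p = 0.0939) and without Alk array 1 or 2 labelled tumor. Beside the Alk term of Ifitm3 stood those of the macrophage genes Tyrobp (-2.61 ± 0.48), Cd68 (-2.32 ± 0.40) and C1qa (-2.10 ± 0.56), called lower of 12 listed. The part of such cells was not tested. Of the called Alk terms, 91.2% were above 0 on the deposited scale and 36.2% after cyclic loess. For Ifitm2 the terms were -1.19 with Alk (-2.46 to 0.09; adjusted p = 0.168) and -0.81 with Egr2 (-2.09 to 0.46; adjusted p = 0.451). For Ifitm3 with Egr2 the term was 0.07 (-1.34 to 1.48; adjusted p = 0.963). With Egr2 limma called 0 of all genes (0%), and 3370 had an unadjusted p under 0.05.

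As a description, Ifitm1 had terms of 2.02 with Ptpn2, -0.17 with Ppp2r2d, -1.10 with Egr2, -1.46 with Alk and -3.29 with Arhgap5. With Arhgap5 its labelled tumor arrays were all below LacZ and its labelled spleen arrays all above, and Ifitm2 did the same (-2.52). The Ifitm3 term with Arhgap5 was -1.74, with overlap in labelled spleen. With Ptpn2, where 17.3% of genes were called in either direction, the terms were 1.09 ± 0.63 for Ifitm2 and 2.10 ± 0.69 for Ifitm3, and that of Ifitm3 ranged over 1.63 to 2.63 on leaving out 1 array. Without Ptpn2 array 1 labelled tumor they were 1.92 for Ifitm1, 1.19 for Ifitm2 and 1.90 for Ifitm3. Of the 12 macrophage markers, Tyrobp alone had a called Ptpn2 term, of opposite sign (-1.72 ± 0.48). The terms for Ppp2r2d were -0.83 for Ifitm2 and 0.32 for Ifitm3. On the deposited scale the median of these terms over all genes was 0.21 to 0.46, and -0.02 to 0.01 after quantile normalization.

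Across arrays of 1 label the members ran together. In labelled tumor the Pearson correlation over 18 arrays was 0.908 between Ifitm1 and Ifitm3, 0.899 between Ifitm1 and Ifitm2 and 0.717 between Ifitm2 and Ifitm3. Taken within groups, as deviations from the group means, these were 0.82, 0.801 and 0.465. In labelled spleen the correlations over 18 arrays were 0.757, 0.828 and 0.799 for the same pairs, and those within groups 0.442, 0.495 and 0.849. These arrays share hairpins and processing, so the values are a description.

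The other genes of the family and the neighbours on the chromosome did not all follow. Ifitm6, close to Ifitm3, was called lower in labelled tumor (-1.54 ± 0.20, SE, over the 6 transductions; limma adjusted p = 4.27e-08), and so was Pgghg, an enzyme gene close to Ifitm5 that acts on the sugars of collagen (-1.32 ± 0.12; adjusted p = 8.95e-11). Ifitm10, farther along the chromosome, was called higher (2.20 ± 0.13; adjusted p = 1.6e-15), as were Ifitm7, on chromosome 16 (0.60 ± 0.16; adjusted p = 0.00208), and Nlrp6, an inflammasome sensor gene (0.40 ± 0.16; adjusted p = 0.0299). Ifitm5, known from bone, differed by 0.17 (adjusted p = 0.286) and the glycosyltransferase gene B4galnt4 by 0.00 (adjusted p = 0.999). The levels of Ifitm10 were 2.09 to 4.41 in labelled tumor and 0.18 to 2.47 in labelled spleen, the reverse of Ifitm2 and Ifitm3. Against LacZ in labelled spleen, Ifitm5 (-1.06 ± 0.36) and Ifitm7 (-1.21 ± 0.40) were called lower with Ppp2r2d, and Ifitm6 (1.66 ± 0.48) and Ifitm10 (1.58 ± 0.32) higher with Arhgap5. None of these 4 was called against LacZ in labelled tumor. Their differences between labels were called for Ifitm5 with Ptpn2 (2.08 ± 0.51) and Alk (1.46 ± 0.51), and for Ifitm7 with Ptpn2 (1.82 ± 0.56), Alk (2.20 ± 0.56) and Arhgap5 (2.10 ± 0.56; 2.82% of genes called in either direction). Ifitm5, Ifitm7 and Nlrp6 lay low, at percentiles 22, 18.9 and 19.1 of genes by mean level. Ifitm6 lay at percentile 28.4, and at 8.7 in labelled tumor. The lowest value of an array was -1.45 on LacZ array 2 labelled spleen and -1.38 on Ptpn2 array 3 labelled tumor, against -4.51 on LacZ array 1 labelled tumor. The first 2 arrays read -0.63 and -0.84 for Ifitm5 and -0.88 and -0.97 for Ifitm7, each the highest of its group. The lowest value was also raised on Egr2 array 2 labelled tumor (-1.45) and on the 3 Alk arrays labelled tumor (-1.88, -2.37 and -2.31). The part of this floor in the calls was not tested.

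Interferon-induced genes went both ways between labels. Of 36 measured genes of a list of 39, 13 were called lower and 10 higher in labelled tumor over the 6 transductions, with a median difference of -0.10 against 0.13 for all genes. These shares are near those of all genes, 33.1% lower and 37.6% higher. After quantile normalization and after cyclic loess 20 and 18 were called higher. The largest falls were Iigp1, a GTPase of resistance to intracellular parasites (-1.91 ± 0.13; limma adjusted p = 1.89e-14), Gbp3, a guanylate-binding protein gene (-1.41 ± 0.14; adjusted p = 1.1e-10), and Ifih1, a sensor of viral RNA (-1.10 ± 0.10; adjusted p = 4.74e-11). The largest rises were Irf1, an interferon-induced transcription factor (1.41 ± 0.16; adjusted p = 6.26e-09), Oas2, an enzyme of antiviral RNA decay (1.38 ± 0.12; adjusted p = 8.66e-12), and Ddx58, the RNA sensor RIG-I (0.89 ± 0.10; adjusted p = 9.66e-09). Each of these differences was smaller in size than those of Ifitm2 and Ifitm3. Upstream of them, 4 of 9 measured receptors and transducers of interferon signals were called higher in labelled tumor, beside 37.6% of all genes. They were the interferon gamma receptor chains Ifngr2 (1.64 ± 0.19) and Ifngr1 (0.59 ± 0.13), the kinase Jak1 (0.92 ± 0.10) and the factor Irf9 (0.27 ± 0.11). The type I receptor chain Ifnar1 (-0.31 ± 0.11) and the kinase Jak2 (-0.25 ± 0.11) were called lower.

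Genes of the interferon-induced list were called higher with the Ptpn2 hairpin in labelled spleen and not in labelled tumor. In labelled spleen 11 of the 36 genes were called higher with Ptpn2 than in LacZ and 0 lower by limma, with a median of 0.87 against -0.15 for all genes, where 3.37% of genes were called higher. On that list 34 of 36 had a difference above 0. Iigp1 read 4.14, 3.20 and 4.19 with Ptpn2, against 1.55, 0.92 and 1.11 in LacZ, a difference of 2.65 ± 0.31 (limma adjusted p = 4.5e-06). The transcription factor gene Irf7 (1.34 ± 0.28; adjusted p = 0.0044), the antiviral gene Ifit2 (1.10 ± 0.26; adjusted p = 0.00983) and Irgm1, a GTPase gene of interferon gamma responses (1.14 ± 0.32; adjusted p = 0.0243), were also called higher, as were Oasl2, Mx2, Ifit1, Igtp, Zbp1, Ifih1 and Bst2 (0.88 to 1.25). Markers of other cells were higher there too. Cd68, a macrophage gene (1.09 ± 0.28), and Pmel, a pigment cell gene (1.13 ± 0.35), were called, and the summed levels with Ptpn2 and in LacZ were 7.15 and 6.67 for macrophage, 7.69 and 6.93 for pigment and 7.50 and 6.69 for class II genes. Their part in the result was not tested.

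In labelled tumor, where the 3 Ifitm genes stood 1.46 to 2.82 above LacZ with Ptpn2, the list had a median of -0.23 against 0.24 for all genes, and of 0.01 against 0.28 without Ptpn2 array 1. Its highest value was 0.58, for Oas3, and 15 of 36 lay above 0. The only gene called was Ifit1, lower with Ptpn2 (-1.73 ± 0.35), in a comparison with 0.121% of genes called lower. Ifit1 read 1.35, 1.57 and 0.24 with Ptpn2, against 2.93, 2.57 and 2.86 in LacZ. The difference between labels was called lower for 11 of the 36, where 2.22% of all genes were called lower, and for 7 without Ptpn2 array 1 labelled tumor. Iigp1 had a term of -3.01 ± 0.44 and Ifit1 of -2.84 ± 0.49, and Gbp2, a guanylate-binding protein gene, had -3.96 ± 0.92, or -2.30 without that array. Such terms were not limited to Ptpn2. With Alk 9 of the 36 were called lower, where 2.24% of all genes were, among them Oasl1 (-2.69 ± 0.55), Ifit1 (-2.68 ± 0.49) and Iigp1 (-2.68 ± 0.44), and with Arhgap5 2, Oasl1 (-2.14 ± 0.55) and Ifit1 (-2.08 ± 0.49). The terms of Ifitm1 were 2.02 with Ptpn2, -1.46 with Alk and -3.29 with Arhgap5. The share of called Ptpn2 terms above 0 was 87.2% on the deposited scale and 46.4% after quantile normalization.

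**Figure D5:**
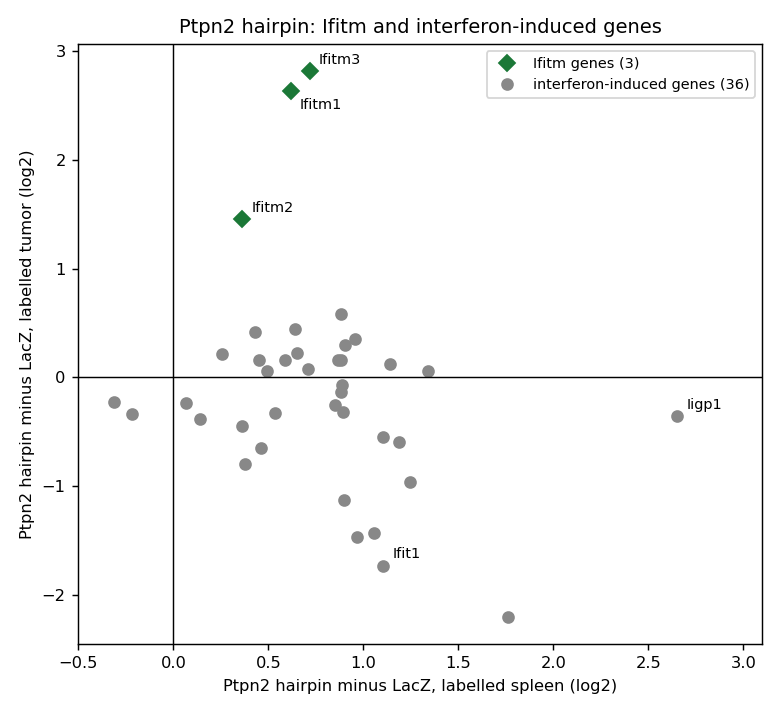
Log2 difference, Ptpn2 hairpin minus LacZ, in labelled tumor (vertical axis) against that in labelled spleen (horizontal axis) for the 3 Ifitm genes (green diamonds) and 36 interferon-induced genes (grey circles). The Ifitm genes lie at 1.46 to 2.82 on the vertical axis and the highest of the 36 at 0.58.

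Against LacZ, between 0 and 4 interferon-induced genes were called with each of the other hairpins under a label. In labelled tumor Oas2 was called higher with Ppp2r2d (1.61 ± 0.29; 0.863% of genes called higher) and Ifit1 lower with Arhgap5 (-1.97 ± 0.35), and 0 were called with Egr2 or Alk. Thus Ifit1 was lower with Arhgap5, as Ifitm1 was, and also lower with Ptpn2, where Ifitm1 was higher. In labelled spleen Irf7 (1.09 ± 0.28) and Iigp1 (0.96 ± 0.31) were called higher with Ppp2r2d, where Ifitm1 was lower (6.14% of genes called higher). With Arhgap5 Iigp1 (1.34 ± 0.31) and Ifit2 (0.84 ± 0.26) were called higher (3.03% of genes), and with Alk Oasl2 (1.47 ± 0.36), Iigp1 (1.40 ± 0.31), Oasl1 (1.30 ± 0.39) and Ifit2 (0.91 ± 0.26; 3.63% of genes).

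Of 8 genes whose products modify or bind IFITM proteins, 4 were called lower and 2 higher in labelled tumor over the 6 transductions, beside 33.1% and 37.6% of all genes. The tetraspanin genes Cd81 (-5.12 ± 0.27; limma adjusted p = 7.95e-17) and Cd9 (-2.15 ± 0.13; adjusted p = 4.16e-15) had the largest falls, followed by Zmpste24, a membrane protease gene (-1.13 ± 0.11; adjusted p = 2.75e-10), and Nedd4, the ubiquitin ligase that marks IFITM3 for breakdown (-0.51 ± 0.14; adjusted p = 0.00184). The methyltransferase gene Setd7 (0.99 ± 0.13; adjusted p = 3.8e-08) and the kinase gene Fyn (0.39 ± 0.12; adjusted p = 0.00514) were called higher. Against LacZ in labelled tumor only Nedd4 was called, lower with Ptpn2 (-1.50 ± 0.34). Its level was 0.59 in Ptpn2 array 1, the array that stood apart, and without that array the difference was -0.99 and not called. In labelled spleen Cd9 was called higher with Alk (1.34 ± 0.33), Arhgap5 (1.25 ± 0.33) and Ppp2r2d (1.14 ± 0.33).

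Other genes followed the family across the 12 group means more closely than its members followed each other. For Ifitm1 the highest Pearson correlations were with the potassium channel gene Kcnk6 (0.883), Itsn1 (0.876), Sarm1 (0.871), Grhl1 (0.859) and the chemokine receptor gene Cx3cr1 (0.857). Ifitm3 came 15th (0.831) and Ifitm2 51st (0.785) of 18193 genes. For Ifitm2 they were with Pon3 (0.98), Hpse, Vcam1, Ica1 and Alg6 (0.978), and for Ifitm3 with the cytokinesis gene Prc1 (0.983), S100a4 (0.982), Slc43a3, Bard1 and Lgals3 (0.973). Ifitm2 and Ifitm3 correlated at 0.955, 127th for Ifitm2 and 48th for Ifitm3. In the other direction Ifitm1 came 3073rd for Ifitm2 and 1891st for Ifitm3. Over the 18 labelled tumor arrays Ifitm1 was most like Car5b (0.938), the inhibitory receptor gene Havcr2 (0.931), Esm1 (0.922), Ifitm3 (0.908) and the granzyme gene Gzma (0.906). Over the 18 labelled spleen arrays it was most like Serpinb1a (0.914), Chl1 (0.90), Pctp (0.895), Prkab1 (0.891) and Dleu2 (0.889). The 2 sets share no gene. Genes named Gm, LOC, Rik or by a clone or accession were skipped in naming these genes but counted in the ranks.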

How the data were processed

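RNA was measured on 36 Affymetrix mouse arrays. The authors deposited log2 values made with RMA, per the submitters' processing notes. RMA corrects background and summarises probes, and neither its version nor its settings are stated in the sources used here. The centring of arrays is not stated, so a difference can hold a shift common to all genes. Total RNA was taken with Trizol and amplified in 1 cycle, per the labels' protocols.

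Groups came from the labels. Of 45101 probe sets, 34958 carried 1 symbol and 932 several. The probe set with the highest mean stood for a gene, which gave 18194 genes. R 4.3.3 and limma 3.58.1 fitted 1 coefficient per group over all arrays (24 residual and 6.75 prior degrees of freedom), with Benjamini-Hochberg adjustment over all genes in each of 22 comparisons. A gene was called at an adjusted p under 0.05. Tests are two-sided, n = 3 arrays a group, and their number limits the precision. The fit was tested on simulated data.

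The members, the lists and the tests were chosen with earlier results of these data known. The planned tests of Ifitm1 between labels with LacZ, Ppp2r2d, Arhgap5, Ptpn2 and the mean over transductions were run but are printed without a p-value, because they reuse the values that chose the family. Named are the members, other Ifitm genes and chromosome neighbours, the 3 largest called rises and falls of the pathway lists between labels, the list members called against LacZ that bear on a result, and the 5 genes most like a member. Sums of markers are the log2 of added levels. The labels do not say whether arrays with the same replicate number were paired, and the main fit did not pair them. Residual correlations of 18 such pairs lay between -0.236 and 0.244, and 4 exceeded 0.1, which cannot exclude pairing. Alternatives were other normalizations, a low-value filter, array weights, fewer arrays, a replicate block and leaving out each array.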

Additional observations from a re-analysis of the deposited data

Results flagged for a closer look

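In 4 cases a member moved differently between groups. The effect of the Alk hairpin on Ifitm3 differed between labelled tumor and labelled spleen by -2.20 on the log2 scale (limma adjusted p = 0.0232). Leaving out 1 array gave -2.88 to -1.64, with the call lost in 3 of 13 such fits. With the Arhgap5 hairpin every array labelled tumor lay below LacZ and every array labelled spleen above it for Ifitm1 (-3.29) and for Ifitm2 (-2.52). These differences between labels were not tested, and the share of all genes with such a pattern was not counted. With the Ptpn2 hairpin Ifitm1 was higher in all 3 arrays labelled tumor than in those labelled spleen (0.98), while it was lower in all arrays labelled tumor with the Ppp2r2d, Egr2, Arhgap5 and Alk hairpins, and the difference between transductions was not tested.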

How the results depend on the processing

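Over all alternatives, all 125 differences of Ifitm2 between labels and 124 of 125 of Ifitm3 kept their direction and side of the threshold. No called member reversed. The values of Ifitm1 here are a description. With Ppp2r2d Ifitm1 differed by -0.79 after quantile normalization, and in LacZ by -1.04 with the low-value filter and -1.38 with array weights. With Ptpn2 the Ifitm1 difference was 1.13 with array weights and 0.98 with only its own arrays in the fit. Leaving out 1 array gave Ifitm1 values of -1.47 to -0.94 with Ppp2r2d, 0.81 to 1.25 with Ptpn2 and -1.53 to -0.77 in LacZ, and Ifitm3 values of -1.88 to -1.31 with Ptpn2. With a replicate block no call of Ifitm2 or Ifitm3 changed, and Ifitm1 in LacZ differed by -1.04. Interferon-induced genes called higher in labelled tumor numbered 20 after quantile normalization and 18 after cyclic loess. With Ptpn2 in labelled tumor those called lower than LacZ numbered 3, 2 and 0 after quantile normalization, cyclic loess and array weights, and in labelled spleen 19 were called higher with array weights. Of the Ptpn2 terms between labels, 1 gene was called higher with the mean of all probe sets, and 7 were called lower without Ptpn2 array 1 labelled tumor. The causes were not tested. Array weights, whose estimate did not converge, called Ifitm2 (-0.85) and Ifitm3 (-2.59) lower with Alk in labelled tumor, Ifitm2 higher with Arhgap5 in labelled spleen (1.30) and the Alk term of Ifitm2 (-1.89), and called up to 12064 genes with Alk in labelled tumor, against 1. Apart from array weights, all genes called against LacZ in labelled tumor numbered up to 435 with Ppp2r2d (181), 512 with Ptpn2 (139, and 57 without Ptpn2 array 1), 180 with Arhgap5 (67), 18 with Egr2 (5) and 80 with Alk (1). The terms between labels called 315 to 4375 genes with Ptpn2 (3151) and 481 to 5773 with Alk (4616). Each member had 1 probe set, so the alternative of other probe sets gave no value.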
